A study of Mus musculus with 6 samples.

Results

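Rgs12, Appl1, Trpm7 and Slx4ip are 4 of 3689 genes named on spotted arrays, measured by 8 of the 8272 probes, in a study of mouse ovary RNA. They are described here across the first days after birth. All probes annotated to these genes were taken: 2 of Rgs12, 1 of Appl1, 4 of Trpm7 and 1 of Slx4ip. The array annotation carries Appl1 and Slx4ip under older RIKEN clone names, both of which were found among the synonyms of these genes in RefSeq. The genes had been picked from the values themselves: with Gdf9, they were the named genes closest to the test in the upward direction at day 2. The day 2 values are therefore given as a description, with no test, and the test was made on the day 4 arrays alone.

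Ovaries came from C57Bl/6J pups with no further treatment or allele named: newborns in their first day (day 0), pups at day 2 and pups at day 4. Each of 6 two-colour cDNA arrays set a later RNA in Cy5 against a day 0 RNA in Cy3, with 3 arrays for day 2 and 3 for day 4, so that each value is a log2 ratio of the later day over day 0. The later RNAs are separate biological replicates per the labels; one and the same day 0 RNA served as reference on array 3 of day 2 and array 3 of day 4, and no other arrays shared a reference. Whether an RNA pools several pups is not given in the sources used here. Follicles of this strain start to assemble at about day 2 per the series text, and the study looked for mRNAs that change as follicles form and begin to grow. Per the labels all arrays had 1 dye orientation, in which case a dye effect of a probe and a change against day 0 cannot be told apart. In RNA of whole ovaries, more cells of a type and more RNA per cell cannot be told apart either.

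It is not settled which way the day 2 ratios run. Over all 8272 probes, the first and second day 2 arrays correlated negatively (r = -0.675, across probes, which are not independent replicates), although the labels give both the same dyes. Each day 2 mean below is for that reason repeated with one of these arrays turned in sign. The correlation was 0.752 between day 4 arrays 1 and 2, and 0.767 between the arrays with the shared reference. Day 4 array 3 correlated with day 4 arrays 1 and 2 at 0.511 and 0.444, lower than with day 2 array 3. As stated, day 2 array 1 correlated with day 4 arrays 1 to 3 at 0.270, 0.176 and 0.023. For day 2 array 2 these were 0.109, 0.239 and 0.225. With day 2 array 3 the 2 arrays correlated at 0.020 and 0.228. Turning an array reverses the sign of its correlations. Day 4 array 3 had values for 5630 probes, against 7775 and 8272 on the other day 4 arrays and 8272 on each day 2 array.

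The 4 genes belong to different pathways. Rgs12 encodes a regulator of G protein signalling, a family that speeds GTP hydrolysis by G protein alpha subunits and so shortens signals from G protein-coupled receptors. Appl1 encodes an adaptor on early endosomes that binds the GTPase Rab5, the kinase Akt and several receptors. Trpm7 encodes an ion channel for magnesium, calcium and zinc that carries a kinase domain of its own. Slx4ip encodes a protein that interacts with Slx4, a scaffold for nucleases that cut branched DNA, and acts at telomeres.

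Promoter sequence from RefSeq (GRCm38.p6) was found for 3 of the 4 genes: Rgs12, Trpm7 and Slx4ip. It is shown as a description of the genes, which were picked from the values, and a shared control of them was not tested. Bases 5′ to 3′ on the gene's strand are in lower case, and capitals mark CACGTG (the palindromic E-box), TGACGTCA (the cyclic AMP response element), GGGCGG (the GC box), TAATTG (bound by NOBOX) and TGATTG (bound by LHX8), each searched on both strands. For Trpm7 and Slx4ip the stretch ends where the annotated gene begins, at chr2:126876262-126876511 (minus strand) and chr2:136890968-136891212 (plus strand, the most upstream of its 4 starts). For Rgs12, 30 bases at chr5:34949330-34949359 (plus strand) are shown, picked because they hold a match; they lie upstream of one annotated start but within the span of the gene.
Trpm7: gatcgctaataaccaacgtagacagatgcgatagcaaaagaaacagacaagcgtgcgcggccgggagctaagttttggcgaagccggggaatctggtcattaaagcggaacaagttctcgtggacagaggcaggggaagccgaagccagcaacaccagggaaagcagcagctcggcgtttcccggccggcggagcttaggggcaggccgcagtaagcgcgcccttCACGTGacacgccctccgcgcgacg
Slx4ip: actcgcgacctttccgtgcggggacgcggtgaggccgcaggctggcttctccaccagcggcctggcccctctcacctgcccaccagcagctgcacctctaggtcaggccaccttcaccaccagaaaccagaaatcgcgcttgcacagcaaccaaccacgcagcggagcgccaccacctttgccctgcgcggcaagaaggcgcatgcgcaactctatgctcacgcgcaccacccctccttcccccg
Rgs12: caacggcctgacCCGCCCctcacgggtccc

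The Trpm7 stretch held 1 CACGTG, which was present in 6.02% of the 32851 windows of 250 bases upstream of a start. The Slx4ip stretch held none of the 5 capitalised motifs. Over all 4 windows of Slx4ip, GGGCGG was found in 2 and TGACGTCA, TAATTG and TGATTG in 1 each, against 32.7%, 1.55%, 7.17% and 12.7% of all windows. GGGCGG was found in both windows of Rgs12. The looser E-box CANNTG, which includes CACGTG, was present in 66.2% of all windows and in 1 of 2 windows of Rgs12, the 1 window of Trpm7 and 4 of 4 of Slx4ip. No motif searched was found in the windows of all 3 genes except CANNTG. These matches describe letters only.

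At day 4, 5 of the 8 probes were higher than at day 0, and each of the 4 genes had at least 1 such probe. The rises ran from 2.30-fold for Appl1 to 4.49-fold for 1 probe of Trpm7. The other 3 probes of Trpm7 did not pass the test. Of all 8135 probes tested, 1.63% were called higher and 0.406% lower (limma on the day 4 arrays, Benjamini-Hochberg adjusted p under 0.05). The genes were picked with day 4 results known, so neither the count of 5 nor the adjusted p of these probes is independent support for a rise.

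Rgs12 was measured by a pair of probes. On BG082484 the log2 ratios were 1.05, 1.24 and 0.82 on day 2 arrays 1 to 3, and 1.69, 2.12 and 1.79 on day 4 arrays 1 to 3. All day 4 values lay above all day 2 values, as in 5.32% of all probes, a separation that the choice of the genes largely set. The day 4 mean was 1.87 ± 0.13 (SE, n = 3), a 3.65-fold rise (95% interval 2.94 to 4.53, limma adjusted p = 0.00317).

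The second Rgs12 probe, BG067869, had log2 ratios of 0.78, 1.00 and 0.62 at day 2 and 1.34, 1.79 and 1.80 at day 4. The ages did not overlap on this probe either, and day 4 array 1 was the lowest of its age on both probes. Its day 4 mean was 1.64 ± 0.13 (SE, n = 3), a 3.13-fold rise (95% interval 2.49 to 3.93, limma adjusted p = 0.00624). The 2 probes of Rgs12 kept close to each other: BG082484 lay 0.20 to 0.34 (log2) above BG067869 on 5 arrays and differed from it by -0.01 on day 4 array 3.

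Appl1, on its single probe BG081057, had log2 ratios of 0.76, 0.65 and 0.68 at day 2 and 1.13, 1.18 and 1.30 at day 4. These were the tightest values of the 8 probes at both ages, with an SD of 0.06 at day 2 and 0.09 at day 4. The day 4 mean was 1.20 ± 0.10 (SE, n = 3), a 2.30-fold rise (95% interval 1.93 to 2.75, limma adjusted p = 0.00789). Without day 4 array 1 the call was lost (adjusted p = 0.105), with the mean then at 1.24.

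Slx4ip, on its single probe BG067245, had log2 ratios of 0.89, 0.93 and 0.78 at day 2 and 1.52, 2.07 and 2.12 at day 4. Day 4 array 1 was again the lowest of its age, and it still lay above every day 2 array by 0.59 or more. As for Rgs12, the choice of the genes largely set this separation. The day 4 mean was 1.90 ± 0.15 (SE, n = 3), a 3.74-fold rise (95% interval 2.88 to 4.86, limma adjusted p = 0.00611).

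**Figure D1:**
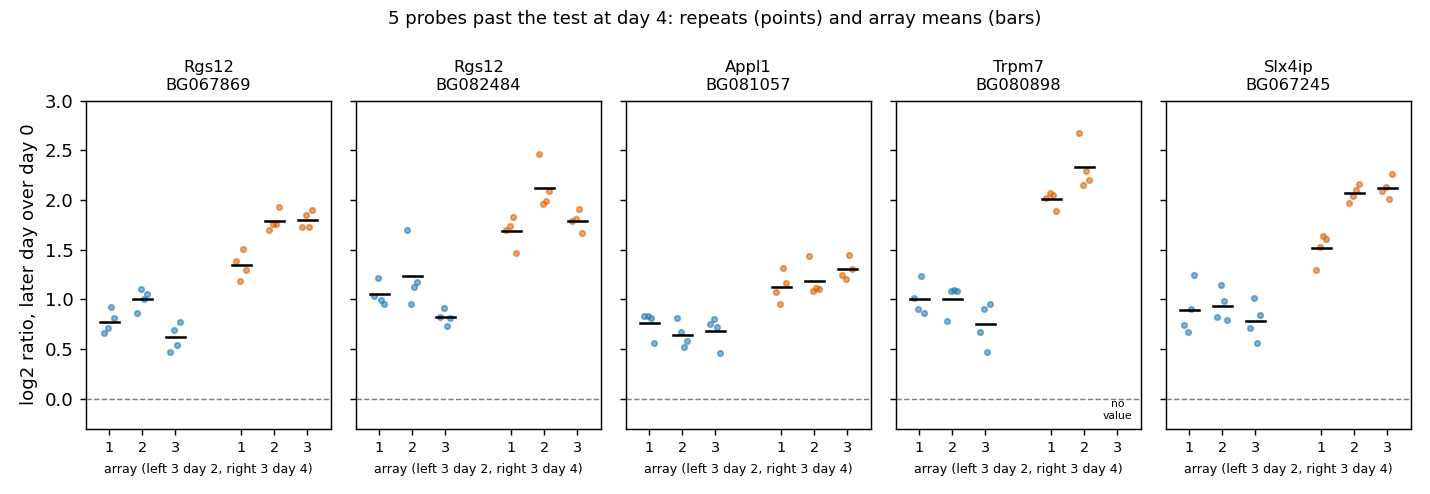
Log2 ratio of the later day over day 0 on each array for the 5 probes past the test at day 4; points are the repeats on an array and bars their mean. All day 4 means lie above all day 2 means of the same probe, as in 5.32% of all probes. The choice of these probes largely set this. Trpm7 BG080898 has no value on day 4 array 3.

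Trpm7 gave different answers on its 4 probes. BG080898 had log2 ratios of 1.00, 1.01 and 0.75 at day 2 and 2.01 and 2.33 on day 4 arrays 1 and 2, with no value on array 3. The day 4 mean was 2.17 ± 0.15 (SE, n = 2), a 4.49-fold rise (95% interval 3.40 to 5.93, limma adjusted p = 0.0103). It was the largest day 4 mean of the 8 probes, and it rests on 2 arrays.

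BG065092 had log2 ratios of -0.32, 0.30 and -0.04 at day 2 and -0.33 and 0.04 on day 4 arrays 1 and 2, again with no value on array 3. The values lay on both sides of 0 at both ages. The day 4 mean was -0.15 ± 0.16 (SE, n = 2, limma adjusted p = 0.645).

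BG079014 had log2 ratios of -0.62, 1.44 and 0.13 at day 2 and -0.01 and 0.48 on day 4 arrays 1 and 2. BG079028 had -0.89, 1.69 and 0.72 at day 2 and -0.08, 0.46 and 0.20 at day 4. On both of these probes day 2 array 1 was low and day 2 array 2 high, the pair of arrays that ran opposite to each other over all probes. Their day 4 means were 0.23 ± 0.17 (SE, n = 2, limma adjusted p = 0.496) and 0.19 ± 0.13 (SE, n = 3, limma adjusted p = 0.454).

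The 95% intervals of these 3 probes reached at most a log2 ratio of 0.70 at day 4, below the lower bound of 1.77 for BG080898. On the day 4 arrays that measured both, BG080898 lay above BG065092 by 2.34 and 2.29, above BG079014 by 2.02 and 1.85, and above BG079028 by 2.09 and 1.87. At day 2 it lay above BG065092 on all 3 arrays, but on array 2 its differences from BG079014 and BG079028 were -0.44 and -0.68. Which stretch of the Trpm7 transcript each clone holds is not given in the sources used here, and the rise of Trpm7 holds for 1 of its 4 probes.

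**Figure D2:**
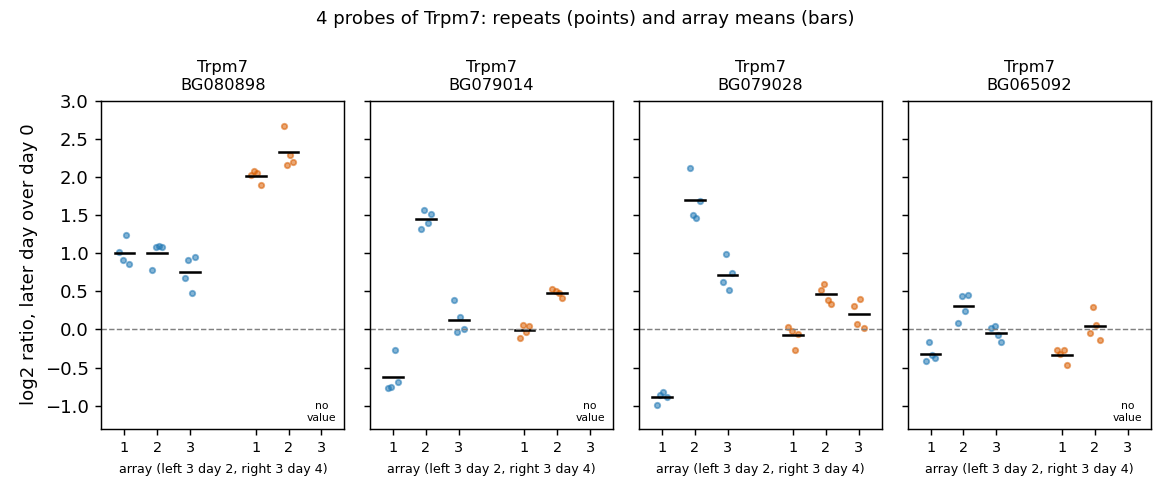
Log2 ratio of the later day over day 0 on each array for the 4 probes of Trpm7; points are the repeats on an array and bars their mean. BG080898 is above 0 on all 5 arrays that measured it and highest at day 4, whereas the other 3 probes lie on both sides of 0.

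Each array held 4 repeats of a probe, printed in duplicate and hybridised in duplicate, which are technical. For the 5 probes past the test, 116 of 116 repeats on 29 array values were above 0, from 0.46 to 2.67, and the authors flagged none of the 29. These probes were chosen for values above 0 at day 2 and grouped by their rise at day 4, so the shared sign was largely set by that choice and describes only the spread of the repeats. For the other 3 probes of Trpm7, 38 of 64 repeats were above 0 and 26 below, and 3 of 16 array values were flagged. The 5 probes were also bright: their intensity lay between the 69.1 and 99.7 percentiles of the array. The other 3 probes lay between the 62.7 and 97.6 percentiles, so the 2 sets overlapped in brightness.

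**Figure D3:**
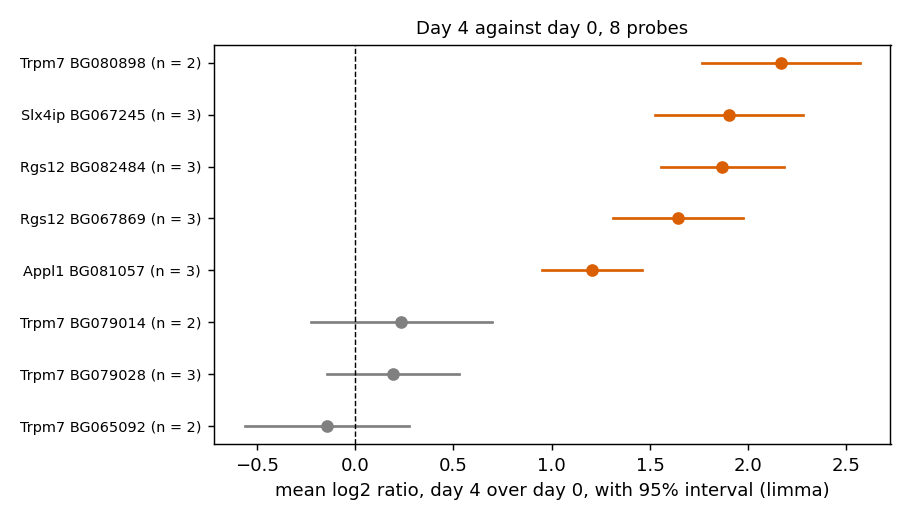
Mean log2 ratio of day 4 over day 0 for the 8 probes with its 95% interval from limma on the day 4 arrays; orange marks an adjusted p under 0.05 and n is the number of arrays. The 5 orange means run from 1.20 to 2.17, and the intervals of the 3 grey Trpm7 probes include 0.

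In a fit of all 6 arrays, whose errors hold the day 2 spread, the 5 probes had adjusted p between 0.00874 and 0.0153 at day 4. The genes were chosen by small p at day 2 in a fit of this kind, so these values are a description and no support. Deviations of same-numbered arrays from their age means correlated at 0.317, 0.115 and 0.56, and those of other pairs at -0.374 to 0.0526. With the replicate number as a block 1 of the 5 probes passed, Rgs12 BG082484 (limma adjusted p = 0.0411). The others then had adjusted p = 0.0573 for Rgs12 BG067869, 0.0726 for Appl1, 0.148 for Trpm7 BG080898 and 0.0509 for Slx4ip. Of all probes, 0.246% were called higher under that block and 0.479% in the fit of all 6 arrays without it. Once either the first or the second day 2 array was turned in sign, 0 of the 5 passed in the fit of all 6 arrays. At the same adjusted threshold 45 and 0 of all 8135 probes were called there. With the second array turned, the 0 thus holds for every probe and tells nothing about the 5. An unadjusted p under 0.05 was reached by 1050 and 897 probes. The day 4 values themselves do not use the day 2 arrays, and the day 4 means stayed the same under either turn. With array 1 turned the SE went from 0.141 to 0.323 for Rgs12 BG067869 and from 0.098 to 0.279 for Appl1. Turning 1 of a set of like day 2 values widens their spread. For the 5 probes the loss was thus largely set by the choice of the genes and tells nothing about day 4.

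At day 2, the values that chose the genes were between 0.70 and 1.04 for the 5 probes that passed at day 4. The means were 1.04 ± 0.21 (SD, n = 3) for Rgs12 BG082484, 0.80 ± 0.19 for Rgs12 BG067869, 0.70 ± 0.06 for Appl1, 0.92 ± 0.15 for Trpm7 BG080898 and 0.87 ± 0.08 for Slx4ip. As stated, all 5 were above 0 on all 3 day 2 arrays, as were 9.04% of all probes, and this is a value that chose the genes. With array 1 or array 2 turned, 0 of the 5 were, against 21.8% and 14.2% of all probes. The 0 was fixed in advance, since turning a value above 0 puts it below 0. The other Trpm7 probes had -0.02 ± 0.31 (BG065092), 0.32 ± 1.05 (BG079014) and 0.51 ± 1.30 (BG079028).

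Turning the sign of an array lowered these means. With array 1 turned the 5 means were 0.19 to 0.34, and with array 2 turned they were 0.13 to 0.27. Each of the 5 probes had day 2 values of like size above 0, so means above 0 after a turn follow from that and are no check. For BG079014 the mean went from 0.32 to 0.73 with array 1 turned and to -0.65 with array 2 turned, and for BG079028 from 0.51 to 1.10 and -0.62.

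In the order of named genes by unadjusted p at day 2, Slx4ip (0.87 ± 0.15, SE from the fit of all 6 arrays) was the last one inside. The genes that followed were H1f8, the linker histone of oocytes (0.72 ± 0.12), Fbxw27, of the F-box family (1.64 ± 0.30), and Exo1, an exonuclease of DNA repair (0.84 ± 0.18). The size of the day 2 values did not separate the genes inside from those outside. This order holds only for the signs as stated. With array 1 turned, Rgs12, Appl1 and Slx4ip stood at places 1136, 1281 and 1203 of 1751 named genes above 0, and Trpm7 at place 4, through BG079028 and not BG080898. With array 2 turned, Rgs12, Appl1, Trpm7 and Slx4ip stood at places 1554, 1105, 1457 and 1376 of 1961.

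**Figure D4:**
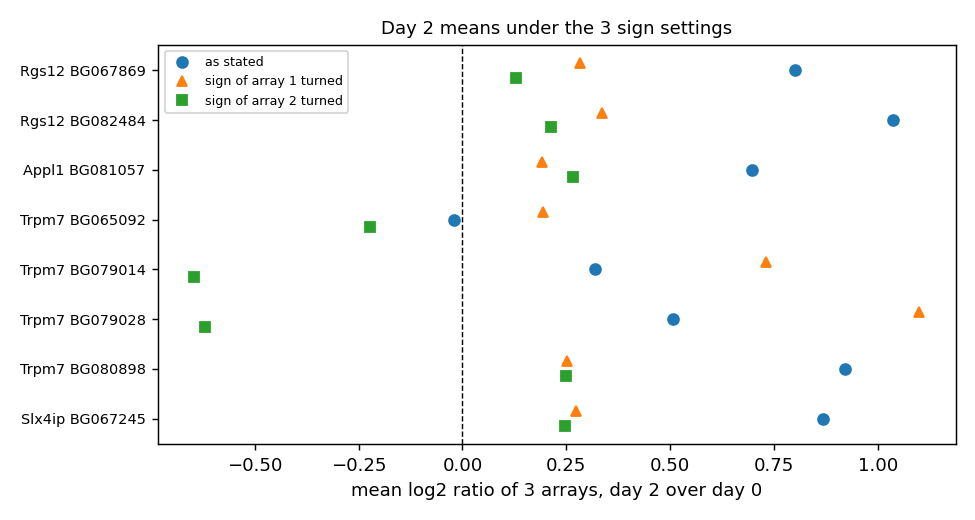
Mean log2 ratio of day 2 over day 0 for the 8 probes as the labels state the dyes, and after turning the first or the second day 2 array in sign. The 5 probes that passed at day 4 have means of 0.13 to 0.34 after a turn, while BG079014 and BG079028 change sign with array 2 turned. The means above 0 after a turn follow from day 2 values of like size above 0 and are no check of the signs.

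Day 4 minus day 2 is an indirect difference, taken through day 0, and any dye effect that a probe has on every array drops out of it. It was 0.84 ± 0.20 (SE) for Rgs12 BG067869 and 0.83 ± 0.19 for Rgs12 BG082484. It was 0.51 ± 0.14 for Appl1, 1.25 ± 0.20 for Trpm7 BG080898 and 1.03 ± 0.21 for Slx4ip. These differences hold the day 2 values that chose the genes and are given with no test. With array 1 turned they were 1.36 and 1.53 for the Rgs12 probes in the same order, 1.01 for Appl1, 1.92 for Trpm7 BG080898 and 1.63 for Slx4ip. With array 2 turned they were 1.51, 1.66, 0.94, 1.92 and 1.66, so that their size depends on the day 2 signs. As stated, every day 4 array was above every day 2 array in the 5 probes, as in 5.32% of all probes, and in 1.29% this held with all day 2 values above 0. With array 1 or array 2 turned, the ages were also separate in the 5 probes, as in 1028 and 897 of all 8135 probes. For the 5 probes this was fixed in advance, because turning a day 2 value above 0 can only lower it. All day 4 values of the 5 probes were above 0, as in 28.4% of probes. For the other Trpm7 probes the differences were -0.12 ± 0.26 (BG065092), -0.08 ± 0.64 (BG079014) and -0.31 ± 0.64 (BG079028). With array 2 turned these became 0.08, 0.88 and 0.81, and with array 1 turned -0.34, -0.50 and -0.91.

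Array 3 of both ages shared its day 0 RNA, so its difference sets day 4 against day 2 over the same reference. It was 1.18 for Rgs12 BG067869, 0.97 for Rgs12 BG082484, 0.62 for Appl1 and 1.34 for Slx4ip. Trpm7 BG079028, the Trpm7 probe with a value on both, had -0.52.

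The pathways around the 4 genes were read from lists of other members, with the brightest probe standing for a gene. The median day 4 log2 ratio over all probes was -0.0013. Of 9 genes of G protein signalling around Rgs12, 0 passed the limma test in either direction, with a median of 0.05. At an unadjusted p under 0.05, 2 were higher and 0 lower, against 11.9% and 10.1% of all probes. The closest were Gng3, a G protein gamma subunit, at 0.61 ± 0.12 (SE, n = 3, limma adjusted p = 0.0725), and Ric8a, an exchange factor and chaperone of alpha subunits, at -0.39 ± 0.16 (n = 3, adjusted p = 0.237). The highest mean of the list was that of Gna14, an alpha subunit, also named after its values were seen. It was 1.09 ± 0.19 (n = 2, limma adjusted p = 0.0747). A dimmer probe of Gnb1, a beta subunit, singled out after its values were seen, had -0.99 ± 0.19 (BG065964, n = 3, adjusted p = 0.073), and the brightest had -0.28 ± 0.12.

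Of 14 genes of the early endosome and of Appl1's partners, 0 passed the limma test, with a median of -0.01. At an unadjusted p under 0.05, 2 were higher and 2 lower, against 11.9% and 10.1% of all probes. Rbsn, an effector of Rab5, had 0.57 ± 0.16 (n = 3, limma adjusted p = 0.13), and Stam2, which sorts ubiquitinated receptors, had -0.48 ± 0.12 (n = 3, adjusted p = 0.105). Of 9 genes of TRP channels and of magnesium and zinc handling around Trpm7, 0 passed the limma test, with a median of -0.07. At an unadjusted p under 0.05, 0 were higher and 1 lower, against the same shares of all probes. Mt1, a metallothionein that binds zinc, had -1.18 ± 0.16 (n = 2, adjusted p = 0.0518), and Trpm2, a channel of the same family, had 0.20 ± 0.13 (n = 2, adjusted p = 0.44). The dimmer of a pair of probes of Magt1, a protein of magnesium transport also singled out after its values were seen, had 0.46 ± 0.11 (AU015471, n = 3, unadjusted p = 0.00717 by limma), and the brighter had 0.25 ± 0.17 (n = 2).

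Of 14 genes of nucleases, crosslink repair and telomeres around Slx4ip, 1 rose and 0 fell, with a median of -0.09. At an unadjusted p under 0.05, 1 was higher and 1 lower, against 11.9% and 10.1% of all probes. The gene that rose was Exo1, whose rise was known when the list was written. Its probe BG067167 had log2 ratios of 1.98, 2.32 and 2.15 at day 4, a mean of 2.15 ± 0.11 (SE, n = 3, limma adjusted p = 0.00147). Its other probe, BG068634, had 1.73 ± 0.16 (n = 3, adjusted p = 0.0103). At day 2 the brighter probe had -0.23, 1.85 and 0.20, all below its day 4 values, with array 2 close to them. Besides Exo1, the closest were Xrcc3, a recombination protein, at 0.19 ± 0.10 (adjusted p = 0.355), and Fancd2, of the crosslink repair pathway, at -0.34 ± 0.11 (adjusted p = 0.173).

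Markers of oocytes rose at day 4, as the 5 probes did. Of 8 measured oocyte markers 7 rose and 0 fell at day 4, with a median of 2.69. The marker lists were written with earlier results of these data known, so their counts and medians are descriptions. The mean log2 ratio of the oocyte markers was 0.27, 1.27 and 0.82 on day 2 arrays 1 to 3. On day 4 arrays 1 to 3 it was 2.21, 2.53 and 2.14. Of the 8 markers, 4, 7 and 8 were above 0 on day 2 arrays 1 to 3. On array 1 the markers ran from -1.265 (Padi6) to 2.11 (Nlrp14). The mean of the 5 probes on the day 2 arrays was 0.90, 0.97 and 0.73. These values chose the genes, so their evenness was largely set by that choice and no contrast with the markers is drawn from it. Gdf9, a growth factor secreted by oocytes, had 3.38 ± 0.10 on its brightest probe (SE, n = 3, limma adjusted p = 0.000998). Bmp15, another oocyte growth factor, had 1.05 ± 0.18 (n = 3, adjusted p = 0.0585). Of 5 red cell markers, listed in the same way, 0 rose and 2 fell, Fech and Blvrb, with a median of -0.88. Hba-a1, a globin gene, had -0.48 ± 0.56 (n = 2, adjusted p = 0.664). Of 3 granulosa and 5 stromal markers 0 passed the limma test. At an unadjusted p under 0.05, 2 of each were higher, against 11.9% of all probes. Of 3 endothelial markers 1 fell, Podxl. The part of these shifts in the values of the 4 genes was not tested.

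**Figure D5:**
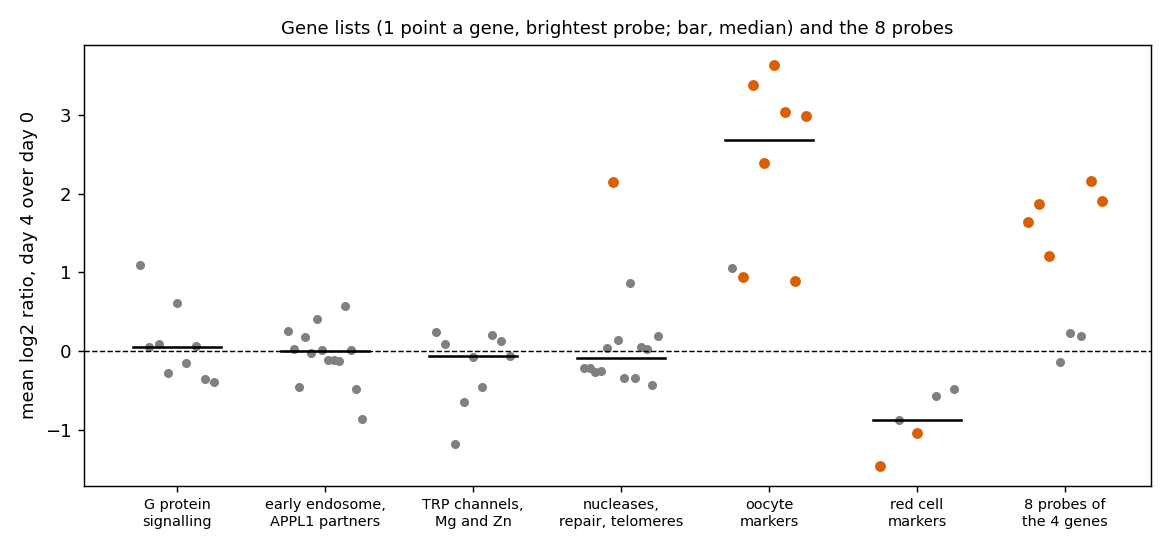
Mean log2 ratio of day 4 over day 0 for genes of 4 pathway lists, of oocyte and red cell markers (1 point a gene, bar at the median) and for the 8 probes; orange marks a limma adjusted p under 0.05. The pathway medians lie between -0.09 and 0.05, the oocyte median at 2.69 and the red cell median at -0.88. All lists were written with earlier results of these data known.

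Likeness was measured as the root mean square difference of the log2 ratios over the 6 arrays, among 2554 other named genes. Nearest to Rgs12 BG082484 were Spopl, an adaptor of a ubiquitin ligase (0.32), H1f8 (0.44) and thyrotroph embryonic factor, a transcription factor (0.48). Nearest to Slx4ip were H1f8 (0.40), Spopl (0.43) and zinc finger protein 36 (0.52). Spopl and H1f8 were thus among the 3 nearest genes of both.

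Nearest to Appl1 were the gene named ATPase, H+ transporting, lysosomal V0 subunit A isoform 4 (0.36), Camta1 (0.42) and Bmp15 (0.43). For Trpm7 the rule took the probe with the smallest SE, BG079028, which did not rise. Nearest to it were Klhl24 (0.28), geranylgeranyl diphosphate synthase 1 (0.29) and Srp72 (0.31). For BG080898, a probe chosen after its values were seen and compared over 5 arrays, they were Spopl (0.11), H1f8 (0.25) and thyrotroph embryonic factor (0.36). All these profiles share the same arrays, and the differences are descriptions with no test.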

How the data were processed

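Ovary RNA was measured on spotted cDNA arrays. Per the file headers, the authors deposited for each array 4 repeat log2 ratios of a probe with their average, the average log2 intensity of the 2 channels, and flags that the headers do not define. The authors also deposited a p-value per probe and array over the repeats, which was not used. R 1.7.1 was used per the submitters' processing notes; how background was corrected and ratios normalized is not given there, and the array medians of the deposited log2 ratios lay between -0.0027 and 0.0232. An array's value was the mean of its repeats, not normalized further, and 8135 of 8272 probes with values on at least 2 day 4 arrays were tested.

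Day 4 means were tested against 0 with limma 3.58.1 in R 4.3.3 on the 3 day 4 arrays, 2-sided, without trend, with Benjamini-Hochberg adjustment over all probes and a threshold of 0.05. Precision is limited by how few arrays there are, with a median SE of 0.133 (log2). If the biological replicates of the labels came from the same litters, p-values measure only the spread between these RNAs. The fit was run on simulated data, drawn independently for each probe and array. A shared reference and opposed day 2 arrays were not simulated, so the run is no check of the errors in these data. The members and lists were chosen with earlier results of these data known. Named beside the 8 probes were, from each pathway list, the genes past the test and the closest in each direction, the 3 nearest genes by likeness, the defining markers and the 3 genes that followed at day 2. Gna14 and the dimmer probes of Gnb1 and Magt1 were added after their values were seen. A leukocyte list had no member matched on the array. Names came from the lists for 94 probes, from the RefSeq gene table for 1452 and from the annotation for 3023, and 3703 had none.

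Deviations from the age means of same-numbered arrays correlated at 0.317, 0.115 and 0.56, and those of other pairs at -0.374 to 0.0526. The numbers were taken to pair the arrays, though for array 2 the ground is slight. Deviations from a mean of 3 arrays are also not independent of each other. The pairing comes from the data, and from the shared day 0 RNA for array 3. Of 6 promoter motifs searched, 5 were set in capitals, and the 30 bases of Rgs12 were chosen for their match. Alternatives were leaving out arrays, other array values, normalizations, filters and variances, and fits of all 6 arrays with and without the block or a turned sign.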

Additional observations from a re-analysis of the deposited data

How the results depend on the processing

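The 5 probes passed, or 4 where Trpm7 BG080898 had no value on all 3 arrays, under each alternative array value, normalization, filter and variance setting of the day 4 arrays. Leaving out a day 4 array gave 3 to 5 of them: Appl1 was lost without array 1, and Trpm7 BG080898 then had 1 value and no test, as without array 2. With the replicate block 1 probe passed, and with the sign of day 2 array 1 or 2 turned 0 passed in the limma fit of all 6 arrays. In that fit 45 and 0 of all probes passed, and 1050 and 897 had an unadjusted p under 0.05. The day 4 means did not change under a turn. A turn widens the day 2 spread of probes that were chosen for like day 2 values, so their loss was largely set by that choice.

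The count of all probes past the test was 166 (133 higher, 33 lower). Leaving out a day 4 array gave 48 to 1137 (48 without array 1, 60 without array 2, 1137 without array 3, of which 53.9% higher against 80.1% with all arrays). It was 93 with the median of the repeats, 72 with values on all 3 arrays (91.7% higher), 363 with trend and robust variances, 39 in the fit of all 6 arrays, 21 with the replicate block, and 45 and 0 with the sign of array 1 or 2 turned. Of the pathway lists 1 gene passed. Leaving out an array gave 1 to 11, and the count was 2 without flagged values, 3 with scale normalization, 2 without the dimmest probes and 4 with trend and robust variances. It was 0 in limma fits of all 6 arrays, with the block and with either sign turned, where 756, 801, 1050 and 897 of all probes had an unadjusted p under 0.05.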
